A study of Drosophila melanogaster with 4 samples.

Results

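The 92 genes described here are named for proteins of the cytoplasmic ribosome of Drosophila melanogaster, although a few with "-like" in their symbol are not part of it. They were chosen by symbol alone, as every gene whose symbol begins with RpL (54 genes, large subunit) or RpS (38 genes, small subunit), and they are 92 of the 13568 genes measured. Genes of the mitochondrial ribosome (mRp symbols) were not included. The members were compared between HP1a mutant and wildtype larvae of the third instar, with 2 libraries of each. The HP1a mutant larvae carried the allele Su(var)205-04 over Su(var)205-05 and were picked from a cross of balanced parents by the absence of the GFP of the balancer chromosome. Su(var)205 encodes heterochromatin protein 1a (HP1a), a protein that binds methylated histone H3 in heterochromatin. Because the mothers of these larvae carried a wildtype copy, HP1a supplied in the egg was not removed. The wildtype larvae were Oregon R, a separate laboratory stock that did not come from the same cross. All stocks were kept on cornmeal medium at 25°C and 70% humidity. RNA came from whole larvae, and no source used here gives their sex or number, so that fewer cells of a type and less RNA per cell cannot be told apart in any value here.

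A ribosome holds nearly all of its proteins in single copy, and the genes that encode them are among the most highly transcribed of a growing larva. In flies, loss of a single copy of many of these genes gives the Minute phenotype, with slow development and thin bristles. Several members exist as a duplicated pair, in which one copy is used widely and the other is weak or restricted to some tissues, often the germline. A few members with "-like" in their symbol resemble yeast factors that assemble the large subunit in the nucleolus and are not part of the finished ribosome.

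The files give FPKM, fragments scaled to transcript length and to the mapped fragments of the library, for each RefSeq transcript, and these were summed over the 160 transcripts of the 92 members. The confidence bounds in the files imply 7659393 and 7329659 fragments in the HP1a mutant libraries, against 7513086 and 7663636 in the wildtype libraries. Of these, 618889 and 486184 fell on members in the HP1a mutant, against 593340 and 594422 in wildtype. These totals are approximate, because the bounds are unreliable for members without an OK status from Cufflinks. The targeted gene, Su(var)205 (chromosome arm 2L, 8209626 to 8211133, genome Release 5), had 27.8 and 20.1 FPKM in the HP1a mutant, against 125 and 137 FPKM in wildtype. Its log2 fold change was -2.42 (SE 0.22, adjusted p = 0.00275 from limma). Genes that mark larval tissue and stage also differed. The 6 salivary glue genes summed to 75 and 484 FPKM in the HP1a mutant, against 49634 and 53125 FPKM in wildtype. The 5 muscle genes summed to 9837 and 8602 FPKM in the HP1a mutant, against 1819 and 2065 FPKM in wildtype. Of 6 fat body genes, the storage protein genes Lsp1alpha, Lsp1beta and Lsp1gamma were higher and Fbp1 was lower in the HP1a mutant. The storage protein gene Lsp2 went the other way, with 2727 and 4433 FPKM in the HP1a mutant, against 9321 and 7758 FPKM in wildtype. Its log2 fold change was -1.29 (adjusted p = 0.0208 from limma), and that of Fbp2 was 0.83 (adjusted p = 0.197 from limma). Both tested neural genes, Syt1 and elav, and 1 of 2 tested imaginal disc genes, ap, were lower, and all 3 missed the false discovery rate (FDR) of 0.01 used for calls when the libraries were rescaled to share 1 median. These lists move with the genotype across all results below, and their part in them was not tested.

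Most members were abundant in all 4 libraries. The median member had 1685 and 1309 FPKM in the HP1a mutant, against 1717 and 1682 FPKM in wildtype. Among the 13222 protein-coding genes, 43 and 38 of the 100 most abundant were members in the HP1a mutant libraries, against 56 and 55 in the wildtype libraries. RpL41, which encodes the smallest protein of the large subunit, was the most abundant member, with 14419 and 9797 FPKM in the HP1a mutant, against 12788 and 12546 FPKM in wildtype. RpL39, whose product lines the exit tunnel, followed with 7095 and 6438 FPKM in the HP1a mutant, against 7021 and 6317 FPKM in wildtype. RpLP2, a protein of the acidic stalk, had 4271 and 3607 FPKM in the HP1a mutant, against 4430 and 4190 FPKM in wildtype. RpL41 and RpL39 overlapped between the genotypes, and so did RpLP2. FPKM of such short transcripts depend strongly on the length correction, so these levels say less about the order of members than about each member between libraries.

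**Figure D1:**
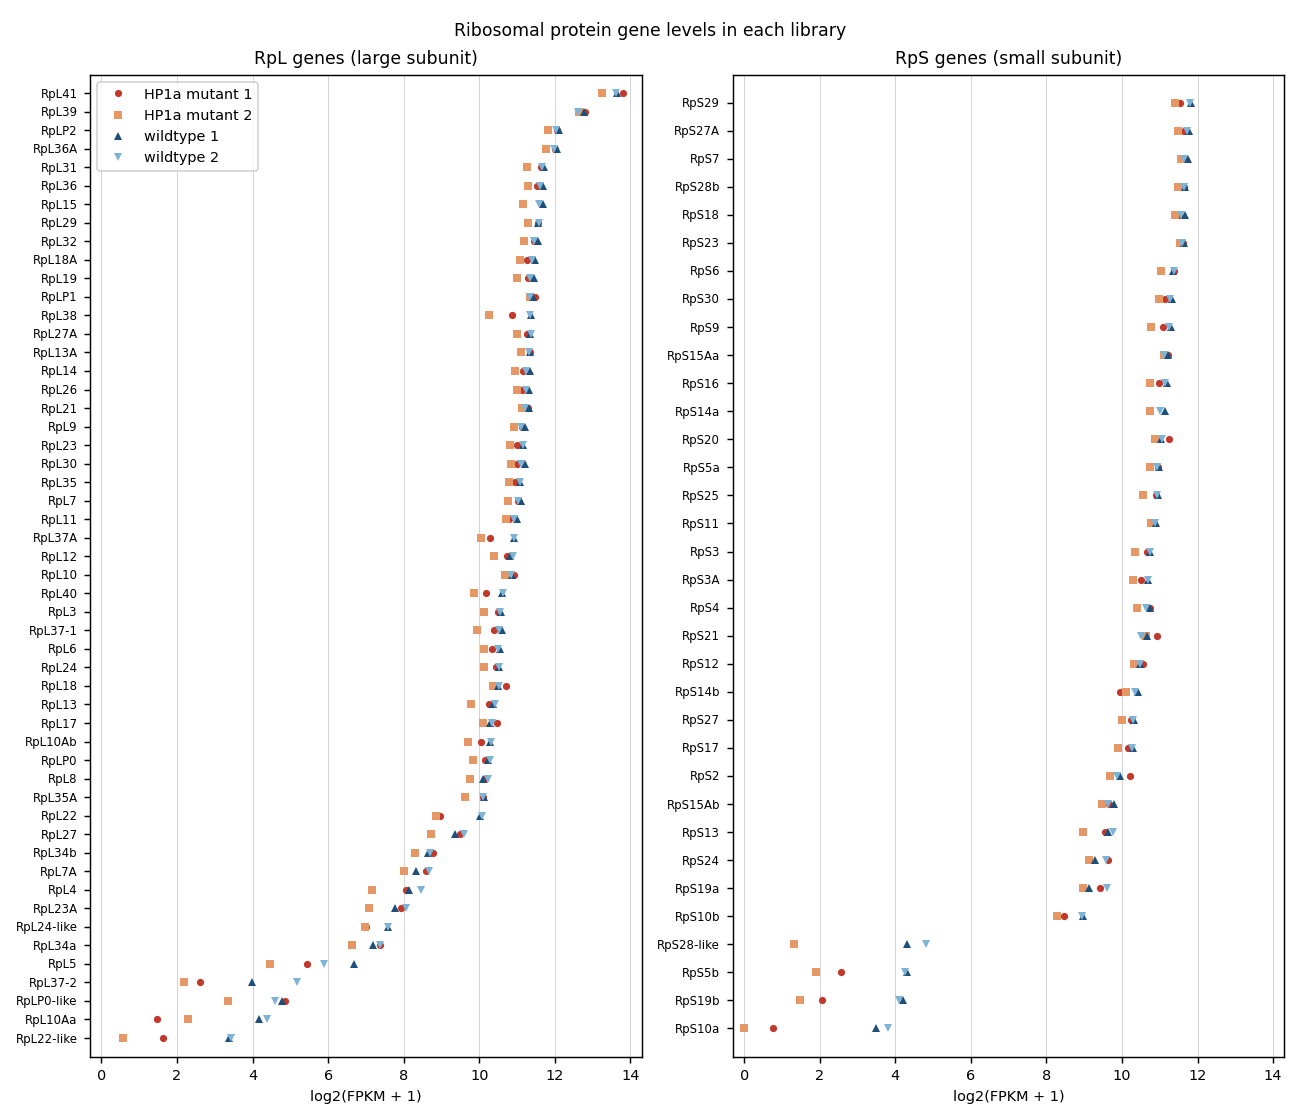
Level of each of the 86 tested members in each library, as log2(FPKM + 1), with RpL genes on the left and RpS genes on the right, ordered by their wildtype mean. Most members lie at the upper end with the 4 libraries close together, and RpL22-like, RpL10Aa, RpL37-2, RpS28-like, RpS5b, RpS19b and RpS10a lie at the lower end, with both HP1a mutant libraries left of both wildtype libraries.

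Of the 92 members, 86 could be tested, that is, had an OK status from Cufflinks in all 4 libraries and a mean log2(FPKM + 1) above 1.4. At an FDR of 0.01 in limma, 7 of them passed as lower in the HP1a mutant and 0 as higher. Among these 7, RpS10a, RpS28-like and RpL22-like exceeded the limit on expression only through their wildtype libraries. Over all 9447 genes tested, 41.4% passed in either direction, 34.4% as lower and 6.98% as higher. A share of 8.14% of the tested members passed in either direction, below that background. At an unadjusted p under 0.05 there were 15 members, each lower in the HP1a mutant, against 6723 of all 9447 genes tested, in either direction. The genotypes did not overlap, with the HP1a mutant lower, for 54 of the 86 tested members, against 69.1% of all genes tested. With the HP1a mutant higher this held for 0 members, against 17.3% of all genes. Leaving out wildtype replicate 1 gave the members a median log2 fold change of -0.22, and leaving out wildtype replicate 2 gave -0.26. The count depended on single libraries, and it was lowest when either wildtype library was left out, for members and for all genes. Each such fit leaves 1 library in a genotype, so its counts are descriptions and not evidence on the members. Without HP1a mutant replicate 1, 13 members passed, against 49.4% of all genes. Without HP1a mutant replicate 2, 7 passed, against 39.1% of all genes.

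In the FPKM as deposited, most of the ribosomal protein genes stood closer to their wildtype level than the typical gene did. For 74 tested members that are single genes or the stronger copy of a pair, the median log2 fold change was -0.22, against -0.84 over all genes tested. The interquartile range was 0.18 for these members, against 1.36 for all genes. 67 of the 74 had a 95% interval that included 0, and 55 had an interval wholly above the median of all genes. The large subunit members (46 tested) had a median of -0.23 and the small subunit members (28 tested) one of -0.17. By chromosome arm, the median lay between -0.24 and -0.19 on 2L, 2R, 3L, 3R and X. 24 of the single or stronger copies overlap a small nucleolar RNA gene in their locus; the 22 of these that were tested had a median of -0.20, and the 52 others one of -0.22.

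The sign of these values, and whether the members or the typical gene lay closer to wildtype, depended on the scaling of the libraries. When the FPKM of every library were rescaled to share 1 median over the tested genes (below, rescaled to the same median), the log2 fold change of the median gene became -0.02, in place of -0.84. On that scale the median of the 86 tested members was 0.69, with 77 of them above 0, whereas it was -0.24 with 7 of them above 0 in the FPKM as deposited. Under quantile normalization the members' median was -0.30 beside -0.06 for all genes, and 3 members passed, against 20.5% of all genes. When the libraries were rescaled to the same sum over protein-coding genes it was -0.36 beside -0.94, and 8 members passed, against 49.6%. On the rescaled values, 3 members passed the FDR, RpS10a, RpS19b and RpS28-like, all lower in the HP1a mutant, against 22.5% of all genes. On that scale 72 of the 86 members had an unadjusted p under 0.05, against 5189 of all 9447 genes tested.

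**Figure D2:**
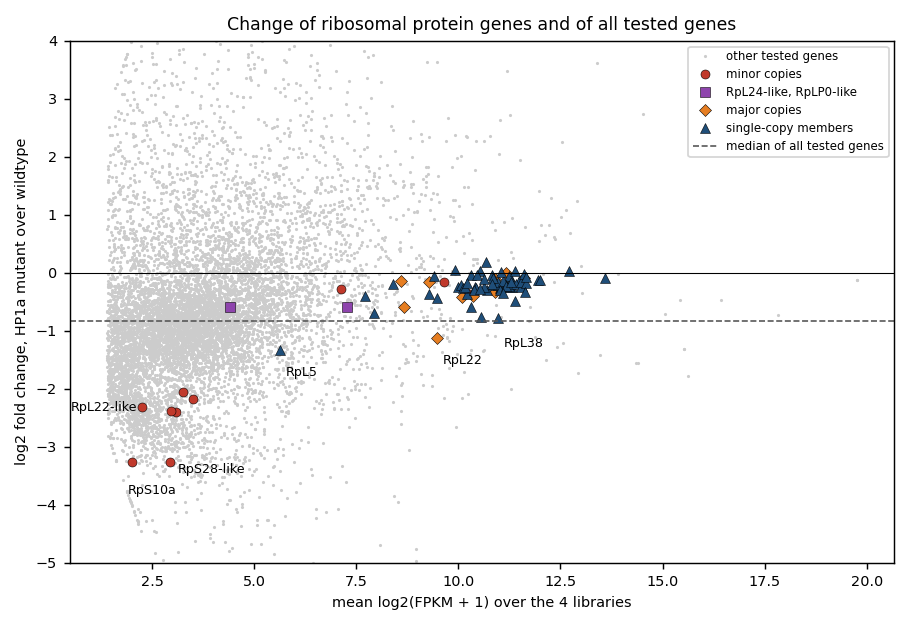
Log2 fold change, HP1a mutant over wildtype, against mean log2(FPKM + 1) over the 4 libraries, for the 86 tested members (coloured by class) and the other tested genes (grey). Single and stronger copies form a narrow band around -0.22 above the dashed median of all tested genes at -0.84, and 7 weaker copies lie between -3.26 and -2.06; 122 genes fall outside the plotted range of -5 to 4.

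RpL22 was the only abundant member that passed the FDR. It encodes a large subunit protein that in flies carries a long histone-like extension. RpL22 (X, 656593 to 659172) had 497 and 465 FPKM in the HP1a mutant, against 1027 and 1073 FPKM in wildtype. Both HP1a mutant libraries were thus below both wildtype libraries, with little spread within either genotype. Its log2 fold change was -1.12 (SE 0.16, adjusted p = 0.00586 from limma), and -0.20 (adjusted p = 0.368) when the libraries were rescaled to the same median. The locus of RpL22 overlaps 3 other genes, a long noncoding RNA and 2 snoRNAs, and whether fragments were assigned by strand is not known. The long noncoding RNA, CR42491, had 197 and 82.7 FPKM in the HP1a mutant, against 263 and 238 FPKM in wildtype. The snoRNA Psi18S-531 had 618 and 199 FPKM in the HP1a mutant, against 1371 and 1045 FPKM in wildtype. These genes also lay lower in both HP1a mutant libraries, but between the HP1a mutant replicates their values differed far more than those of RpL22 did. Their part in the value of RpL22 was not tested.

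7 of the 74 single or stronger copies had a log2 fold change below -0.5: RpL22, RpL37A, RpL38, RpL4, RpL40, RpL5 and RpS10b. They are singled out here after their values were seen, and all but RpL22 missed the FDR. RpL5, which with RpL11 carries 5S rRNA into the large subunit, had 42.3 and 21.2 FPKM in the HP1a mutant, against 102 and 58.6 FPKM in wildtype. RpL5 had the lowest wildtype level of all single copies, the genotypes did not overlap, and its replicates spread widely in both. Its log2 fold change was -1.34 (95% interval -2.55 to -0.12, adjusted p = 0.0549 from limma). RpL37A, a zinc-binding protein of the large subunit, had 1253 and 1050 FPKM in the HP1a mutant, against 1947 and 1932 FPKM in wildtype, at a log2 fold change of -0.76 (SE 0.18, adjusted p = 0.0222 from limma). RpL37A passed when the libraries were rescaled to the same protein-coding sum, as did 49.6% of all genes. RpL4 had 264 and 141 FPKM in the HP1a mutant, against 279 and 349 FPKM in wildtype. Here 1 HP1a mutant library lay close to wildtype and the other did not (log2 fold change -0.69, 95% interval -1.66 to 0.28).

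The ubiquitin fusion genes and the stalk genes are the members with a special structure or position. RpL40 encodes a large subunit protein fused to ubiquitin, and it had 1158 and 935 FPKM in the HP1a mutant, against 1550 and 1577 FPKM in wildtype. Its log2 fold change was -0.59 (95% interval -1.10 to -0.07, adjusted p = 0.0507 from limma). RpS27A, the fusion gene of the small subunit, had 3193 and 2886 FPKM in the HP1a mutant, against 3506 and 3403 FPKM in wildtype, with a log2 fold change of -0.19 (95% interval -0.65 to 0.28). Neither fusion gene passed, although both HP1a mutant libraries were below both wildtype libraries for each. Among the acidic stalk proteins, which recruit elongation factors, RpLP0 had 1136 and 911 FPKM in the HP1a mutant, against 1195 and 1246 FPKM in wildtype. RpLP1 had 2855 and 2604 FPKM in the HP1a mutant, against 2728 and 2615 FPKM in wildtype. The log2 fold changes of RpLP0, RpLP1 and RpLP2 were -0.26, 0.03 and -0.13, with 95% intervals that all included 0.

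The tested member with the highest log2 fold change was RpS21, a small subunit protein, at 0.19 (95% interval -0.35 to 0.72). It had 1951 and 1582 FPKM in the HP1a mutant, against 1624 and 1463 FPKM in wildtype, so that the lower HP1a mutant library lay below the higher wildtype library. RpS2, RpL18, RpLP1 and RpL39 followed, at 0.05, 0.03, 0.03 and 0.02. All 5 overlapped between the genotypes. RpS2, RpL18 and RpL39 were below 0 in quantile normalized values, and RpS2, RpL18, RpLP1 and RpL39 were below 0 when the libraries were rescaled to the same protein-coding sum.

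Because HP1a binds heterochromatin, members that lie in or near it were looked at apart. 5 members lie on chromosome 4, in 3LHet or within 1 Mb of the proximal end of an assembled arm, a limit chosen after the values were seen. Of these 5, 0 passed the FDR, against 41.4% of all genes tested. RpS3A is the member on chromosome 4 (86745 to 87863), an arm that is largely heterochromatic yet transcribed, and encodes a small subunit protein. RpS3A had 1462 and 1242 FPKM in the HP1a mutant, against 1640 and 1652 FPKM in wildtype. Both HP1a mutant libraries were lower, and the log2 fold change was -0.29 (95% interval -0.77 to 0.20, adjusted p = 0.215 from limma). RpL15, in 3LHet (2397792 to 2398990), had 2254 and 2302 FPKM in the HP1a mutant, against 3319 and 3078 FPKM in wildtype, at a log2 fold change of -0.49 (95% interval -0.94 to -0.04, adjusted p = 0.0571 from limma). The HP1a mutant libraries agreed more closely for RpL15 than its wildtype libraries did. RpL38, at 403503 to 403961 on 2R, had 1875 and 1226 FPKM in the HP1a mutant, against 2633 and 2612 FPKM in wildtype (log2 fold change -0.79, 95% interval -1.50 to -0.08). Between the HP1a mutant replicates, RpL38 had a difference of -0.61 on the log2 scale. RpL21, at 22247111 to 22247833 on 2L, had 2485 and 2222 FPKM in the HP1a mutant, against 2539 and 2370 FPKM in wildtype, and overlapped between the genotypes (log2 fold change -0.06). RpL5 is the proximal-most member on 2L, at 22427533 to 22429419. The 5 members had a median of -0.49, against -0.84 for all genes and -0.22 for the 74 tested single or stronger copies, which include them.

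6 of the 7 members that passed the FDR are the weaker copy of a duplicated pair. The weaker copy is the one with the lower mean FPKM over all 4 libraries. RpS10a, RpS28-like and RpL22-like exceeded the limit on expression only through their wildtype libraries. Their adjusted p, and the counts and medians of the weaker copies, are therefore descriptions. 10 of 11 weaker copies were tested, and their median log2 fold change was -2.25, or -1.50 when the libraries were rescaled to the same median, against -0.84 or -0.02 for all genes. RpS28-like (2L, 9436953 to 9437227) had 1.44 and 1.49 FPKM in the HP1a mutant, against 18.7 and 27.3 FPKM in wildtype. This rests on 2 fragments in the HP1a mutant libraries together and 30 in wildtype, a ratio of 0.0675 after scaling to library totals (exact 95% interval 0.00782 to 0.266, counting error only). RpS10a (3R, 23478558 to 23479085) had 0.700 and 0 FPKM in the HP1a mutant, against 10.2 and 12.9 FPKM in wildtype. It had 2 fragments in the HP1a mutant and 62 in wildtype, a ratio of 0.0327 (exact 95% interval 0.00387 to 0.123, counting error only). The locus of RpS10a overlaps that of tau, with which it could share fragments. Both genes had a fitted log2 fold change of -3.26 (adjusted p = 0.00314 for RpS10a and 0.00231 for RpS28-like from limma), which depends on the pseudocount at such low counts.

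The other weaker copies that passed had more fragments. RpS19b (3R, 19758451 to 19759252), which is known for expression in the germline, had 3.19 and 1.78 FPKM in the HP1a mutant, against 17.5 and 16.1 FPKM in wildtype. RpS5b (3R, 10726154 to 10727310), a copy used in the female germline, had 4.90 and 2.71 FPKM in the HP1a mutant, against 18.7 and 18.2 FPKM in wildtype. RpL10Aa (3R, 10863088 to 10863872) had 1.76 and 3.85 FPKM in the HP1a mutant, against 17.1 and 19.8 FPKM in wildtype. In all of these the wildtype libraries agreed closely, and the highest HP1a mutant value stayed far under the lowest wildtype value. RpL22-like (2R, 19134127 to 19135360), which is expressed in testis, had 2.09 and 0.482 FPKM in the HP1a mutant, against 9.42 and 9.80 FPKM in wildtype. The log2 fold changes were -2.38 for RpS19b, -2.06 for RpS5b, -2.41 for RpL10Aa and -2.31 for RpL22-like (adjusted p between 0.00337 and 0.00887 from limma). RpL37-2 (2R, 18987580 to 18987982) had 5.12 and 3.54 FPKM in the HP1a mutant, against 14.8 and 35.4 FPKM in wildtype, and did not pass (log2 fold change -2.18, SE 0.46, adjusted p = 0.0152 from limma). The wildtype replicates of RpL37-2 differed by 1.21 on the log2 scale, and the genotypes did not overlap. All 7 of these low-level copies stayed below 0 under each of the 3 other scalings, but most of their calls depended on the processing. RpL10Aa, RpL22-like and RpS5b missed the FDR when the libraries were rescaled to the same median, and RpS10a missed it with these 3 after quantile normalization. RpS10a and RpL22-like also missed it with a pseudocount of 0.1.

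Within a pair, the share of the weaker copy does not depend on the scaling of a library. RpL10Aa made up 0.166% and 0.462% of the FPKM of its pair with RpL10Ab in the HP1a mutant, against 1.36% and 1.55% in wildtype. RpS19b made up 0.461% and 0.352% of its pair with RpS19a in the HP1a mutant, against 3.07% and 2.02% in wildtype. RpS5b made up 0.248% and 0.157% of its pair with RpS5a in the HP1a mutant, against 0.911% and 0.922% in wildtype. In each of these pairs the stronger copy supplied nearly all of the FPKM in both genotypes. For RpL22-like the share of the pair was 0.419% and 0.103% in the HP1a mutant, against 0.909% and 0.906% in wildtype, although RpL22 itself was lower in the HP1a mutant. RpS10a held 0.198% and 0% of its pair with RpS10b in the HP1a mutant, against 1.99% and 2.54% in wildtype. RpL37-2 held 0.383% and 0.359% of its pair with RpL37-1 in the HP1a mutant, against 0.946% and 2.35% in wildtype. RpS28-like held 0.0451% and 0.0520% of its pair with RpS28b in the HP1a mutant, against 0.566% and 0.851% in wildtype. With 2 libraries against 2, an exact permutation test of any such ratio cannot give a p below 0.33, and none was run.

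In 3 other pairs both copies were abundant. RpL34a made up 27.4% and 23.7% of its pair with RpL34b in the HP1a mutant, against 26.5% and 28.3% in wildtype. RpS14b made up 36.6% and 39.6% of its pair with RpS14a in the HP1a mutant, against 37.8% and 38.7% in wildtype. RpS15Ab made up 25.3% and 24.2% of its pair with RpS15Aa in the HP1a mutant, against 27.3% and 26.2% in wildtype. The genotypes overlapped for RpL34a and RpS14b, and the share of RpS15Ab was lower in both HP1a mutant libraries. Copies as alike as those of RpS14 could exchange fragments in the authors' counting, so their split is uncertain. The log2 fold changes of RpL34a, RpS14b and RpS15Ab were -0.28, -0.35 and -0.15 (adjusted p between 0.14 and 0.483 from limma).

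**Figure D3:**
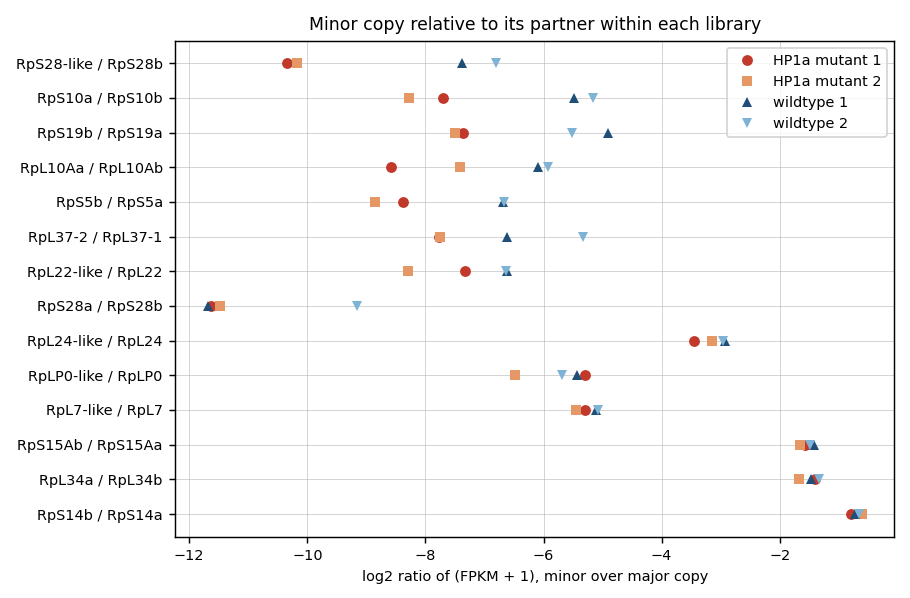
Log2 ratio of (FPKM + 1) of the weaker member of a pair to that of its partner, in each library. The 14 pairs are ordered by the difference between genotypes. They include the 3 members that resemble yeast assembly factors, which are paired by name only. For RpS28-like, RpS10a, RpS19b, RpL10Aa, RpS5b, RpL37-2 and RpL22-like both HP1a mutant libraries lie left of both wildtype libraries, while RpS14b, RpL34a and RpS15Ab lie between -1.68 and -0.61 in all 4 libraries.

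Genes that are expressed mainly in testis or germline were measured beside the weaker copies. 15 genes of this list of 16 were measured, 7 were tested, and 4 were lower in the HP1a mutant at the FDR, namely Mst87F, dj, bol and twe, with 0 higher, against 34.4% and 6.98% of all genes. Of the tested genes, twe, sa, mia and nht exceeded the limit on expression only through their wildtype libraries, so the count is a description. When the libraries were rescaled to the same median, Mst87F and dj passed, and bol (adjusted p = 0.0161 from limma) and twe (0.0147) did not. Mst87F, a sperm tail gene, had 23.3 and 26.4 FPKM in the HP1a mutant, against 248 and 294 FPKM in wildtype. The FPKM of the list summed to 41.5 and 40.7 in the HP1a mutant, against 332 and 402 in wildtype, and 0 of the 15 were at 0 in both HP1a mutant libraries. The early germ cell gene vas, not tested at its level, had 0.546 and 0.510 FPKM in the HP1a mutant, against 0.354 and 0.288 FPKM in wildtype. For aub, a piRNA pathway gene, the values were 0.967 and 1.19 FPKM in the HP1a mutant, against 0.718 and 1.17 FPKM in wildtype. The 7 tested genes of this list were all lower in the HP1a mutant, as the weaker ribosomal copies were. By contrast, vas was higher in both HP1a mutant libraries and aub overlapped between the genotypes. The part of these genes in the values of the weaker copies was not tested.

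Of the 3 members that resemble yeast assembly factors, RpL24-like and RpLP0-like were tested, and neither passed. RpL24-like, similar to yeast Rlp24, had 126 and 124 FPKM in the HP1a mutant, against 191 and 189 FPKM in wildtype. The replicates of each genotype nearly coincided and the genotypes did not overlap (log2 fold change -0.60, 95% interval -1.02 to -0.19, adjusted p = 0.0261 from limma). RpLP0-like, similar to yeast Mrt4, had 27.8 and 9.24 FPKM in the HP1a mutant, against 26.7 and 23.2 FPKM in wildtype. It had the largest difference between replicates of all tested members, 1.49 on the log2 scale between the HP1a mutant libraries. RpL7-like, similar to yeast Rlp7, had 52.0 and 38.8 FPKM in the HP1a mutant, against 62.3 and 60.3 FPKM in wildtype, with a failed estimate in all 4 libraries.

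Other members were not tested either. RpS15 and RpS26 had a failed status in 2 and 1 libraries, and RpL28 had too little data by its status in 1. RpS15, at the head of the small subunit, had 1845 and 1588 FPKM in the HP1a mutant, against 1930 and 1885 FPKM in wildtype. RpS26 had 1150 and 1088 FPKM in the HP1a mutant, against 1454 and 1528 FPKM in wildtype. RpL28 had 219 and 179 FPKM in the HP1a mutant, against 224 and 257 FPKM in wildtype. Each of these 3 was below wildtype in both HP1a mutant libraries. RpS28a was under the expression limit, with 0 FPKM in both HP1a mutant libraries, against 0 and 4.57 FPKM in wildtype, the last from 1 fragment, so no fold is given.

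The HP1a mutant libraries differed from each other across the members. Replicate 2 lay below replicate 1 for 82 of the 86 tested members, with a median difference of -0.26 on the log2 scale. Between the wildtype libraries the members' median difference was -0.02. Over all 9447 genes tested, HP1a mutant replicate 2 was the lower for 5888, with a median difference of -0.14. Between the wildtype libraries the median difference of all genes was 0.05. The difference was wider in the less abundant members. 12 single or stronger copies with a mean FPKM under 1000, among them RpL4, RpL23A, RpS19a and RpL5, had a median difference of -0.57 between the HP1a mutant libraries, and the 62 others one of -0.25. Between the wildtype libraries the same 12 differed by 0.17 and the 62 others by -0.04. RpL23A, a docking protein at the tunnel exit, had 242 and 135 FPKM in the HP1a mutant, against 219 and 264 FPKM in wildtype. RpS19a had 689 and 505 FPKM in the HP1a mutant, against 554 and 781 FPKM in wildtype. Both were spread in the 2 genotypes and overlapped. Without HP1a mutant replicate 2, the median log2 fold change of the 86 members was -0.09 and 24 of them were above 0, and without HP1a mutant replicate 1 it was -0.37 and 1 was above 0.

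**Figure D4:**
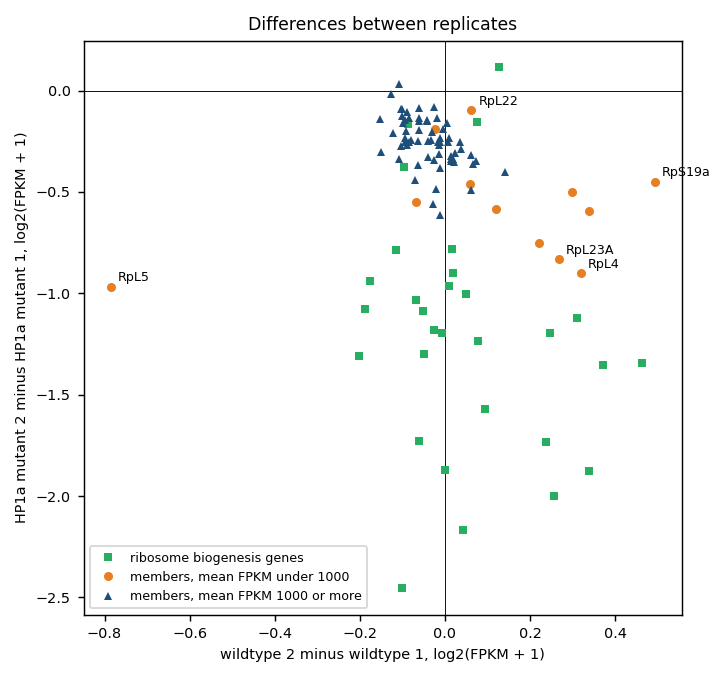
Difference between the HP1a mutant replicates (vertical) against that between the wildtype replicates (horizontal), in log2(FPKM + 1), for single and stronger copies above and below a mean FPKM of 1000 and for ribosome biogenesis genes. The members with more than 1000 FPKM lie near -0.25 and -0.04, those under 1000 near -0.57 and 0.17, and most biogenesis genes lower on the vertical axis.

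The genes of ribosome assembly spread far more between the HP1a mutant libraries than the ribosomal protein genes did. A list of 34 genes of rRNA transcription, rRNA modification and subunit assembly gave 32 measured and 30 tested genes. At the FDR, 2 passed as lower and 0 as higher in the HP1a mutant, against 34.4% and 6.98% of all genes. Their median log2 fold change was -0.75, or 0.04 with the libraries rescaled to the same median, and their median difference between the HP1a mutant replicates was -1.19, against 0.01 between the wildtype replicates. Ns2, a nucleolar GTPase, had 21.2 and 16.1 FPKM in the HP1a mutant, against 61.9 and 57.8 FPKM in wildtype (log2 fold change -1.64, SE 0.20, adjusted p = 0.00415 from limma). udd, needed for rRNA transcription, had 7.17 and 6.33 FPKM in the HP1a mutant, against 15.9 and 16.8 FPKM in wildtype (log2 fold change -1.16, SE 0.16, adjusted p = 0.00517 from limma). The highest values of the list belonged to Polr1A, the largest subunit of RNA polymerase I, and nclb, at -0.29 each, and both were above 0 without HP1a mutant replicate 2. How many genes of the list passed depended strongly on which single library was left out, as it did for all genes tested.

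The translation factors that work on the ribosome ranged from the level of its proteins to far below it. Of 10 elongation and release factor genes, all tested, 1 was lower in the HP1a mutant and 0 were higher, against 34.4% and 6.98% of all genes, with a median log2 fold change of -0.26. eEF2, the translocase, had 1621 and 1416 FPKM in the HP1a mutant, against 1298 and 1269 FPKM in wildtype. It was above wildtype in both HP1a mutant libraries (log2 fold change 0.24, adjusted p = 0.275 from limma), and passed, at 1.16 (adjusted p = 0.00795), when the libraries were rescaled to the same median. eEF1alpha2, the weaker of the genes for the factor that delivers aminoacyl-tRNA, had 13.5 and 13.3 FPKM in the HP1a mutant, against 59.8 and 53.8 FPKM in wildtype (log2 fold change -2.0, SE 0.16, adjusted p = 0.00248 from limma). Rescaled to the same median, eEF1alpha2 was at -1.11 and missed the FDR (adjusted p = 0.0115 from limma). eEF1beta, which recharges that factor, had 948 and 954 FPKM in the HP1a mutant, against 986 and 953 FPKM in wildtype, and overlapped between the genotypes. eRF1, which ends translation at stop codons, had 46.0 and 33.1 FPKM in the HP1a mutant, against 80.4 and 79.9 FPKM in wildtype, without passing (log2 fold change -1.02, adjusted p = 0.0157 from limma).

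Of 15 measured genes that regulate or assist ribosomal protein genes and their products, 3 were lower in the HP1a mutant and 0 were higher, against 34.4% and 6.98% of all genes. The 3 are factors that bind promoters of ribosomal protein genes or of growth genes. Trf2, a TBP-related factor used at such promoters, had 4.84 and 3.58 FPKM in the HP1a mutant, against 12.0 and 13.0 FPKM in wildtype (log2 fold change -1.38, SE 0.19, adjusted p = 0.00551 from limma). Dref had 10.7 and 7.75 FPKM in the HP1a mutant, against 27.9 and 22.7 FPKM in wildtype (log2 fold change -1.38, SE 0.23, adjusted p = 0.00787 from limma), and its locus overlaps that of RpL13. M1BP had 17.3 and 15.6 FPKM in the HP1a mutant, against 38.1 and 32.4 FPKM in wildtype (log2 fold change -1.05, adjusted p = 0.00808 from limma). In values rescaled to the same median their log2 fold changes were -0.58, -0.51 and -0.16, and none of the 3 passed. Xrp1, a factor that in flies responds to loss of a ribosomal protein gene copy, had 119 and 85.5 FPKM in the HP1a mutant, against 74.9 and 79.3 FPKM in wildtype. Its log2 fold change was 0.38 (adjusted p = 0.19 from limma), and 1.30 (adjusted p = 0.00688) with the libraries rescaled to the same median. Tctp, whose levels often follow those of ribosomal proteins, had 1290 and 1169 FPKM in the HP1a mutant, against 1240 and 1239 FPKM in wildtype, and overlapped.

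**Figure D5:**
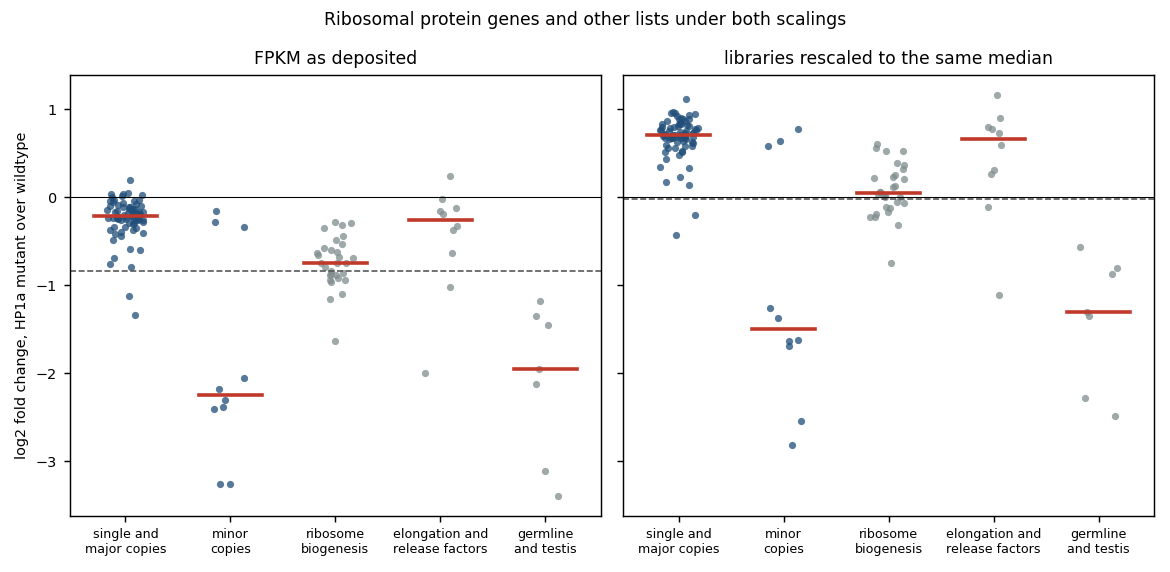
Log2 fold change, HP1a mutant over wildtype, of tested genes of 5 groups, in FPKM as deposited (left) and with the libraries at the same median (right), where points are genes, red bars are medians and the dashed line is the median of all tested genes. Single and stronger copies have a median of -0.22 as deposited and 0.70 rescaled, and weaker copies one of -2.25 and -1.50.

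The share of RNA that went into ribosomal proteins depended on what it was set against. Of the FPKM of all protein-coding genes, members held 20.2% and 18% in the HP1a mutant, against 24.2% and 23.1% in wildtype. This share averaged 19.1% ± 1.52 in the HP1a mutant and 23.7% ± 0.781 in wildtype (SD, n = 2 each), without overlap. Of the FPKM of all genes, noncoding RNAs included, it was 5.23% and 4.36% in the HP1a mutant, against 4.65% and 4.83% in wildtype, and overlapped. In implied fragments on protein-coding genes, members held 10.4% and 8.69% in the HP1a mutant, against 10.5% and 10.2% in wildtype. The higher HP1a mutant library was thus close to both wildtype libraries. Implied fragments are unreliable for members without an OK status. RpS15 had 7010 and 5819 of them in the HP1a mutant, against 817 and 806 in wildtype, although its FPKM differed little. Such members are included, so this share is approximate. These values have no test, because 2 libraries against 2 cannot give an exact permutation p below 0.33.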

How the data were processed

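RNA-seq libraries, depleted of rRNA, were made from larvae of the third instar, 2 of HP1a mutant and 2 of wildtype. The authors deposited FPKM per RefSeq transcript, each with its confidence bounds and the Cufflinks status. Per the labels, TopHat and Cufflinks were used, versions not given in the sources used here. Scaffold names are those of Release 5. A Release 6 annotation supplied names only, for 21388 of 22608 transcripts, and the rest were left out. FPKM were summed per gene. Genes with a mean log2(FPKM + 1) above 1.4 and an OK status in all 4 libraries entered limma 3.58.1 (R 4.3.3), a two-sided moderated test whose prior variance follows mean expression, with adjustment by Benjamini-Hochberg over 9447 genes at an FDR of 0.01. The pseudocount of 1, the expression limit and the FDR are those of the study, whose count tools were not used because the values are FPKM. Fragments behind a value were inferred from its bounds as the square of FPKM over its SE. Of 200 genes simulated among 9447, 2.5% were recovered at a log2 change of 0.5, 79.5% at 1 and 100% at 2. Far fewer genes changed in the simulation than the 41.4% that passed here, so its adjustment was stricter. These rates therefore do not carry over to this fit. Other analyses were run in Python 3.11.15. The labels call the libraries biological duplicates. Same-numbered libraries of the genotypes did not deviate together (Pearson r = 0.03 across genes). Members, pairs and lists were chosen with earlier results of these data known. Genes named one by one are the members of pairs, the stalk and ubiquitin fusion genes, RpS3A, members not tested, the 5 members with the highest and the 5 with the lowest log2 fold change, the 3 most abundant members, the 3 with the largest spread between replicates, and the 2 highest and 2 lowest genes of each list of the ribosome and translation. RpL4, RpL5, RpL15, RpL21, RpL23A, RpL37A, RpL38, M1BP, the genes over RpL22 and the germline and tissue genes were named after their values were seen. The values of 1 member are not reported here. Alternatives were other pseudocounts, filters and scalings, the most abundant transcript in place of the sum, a replicate block and each library left out.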

Additional observations from a re-analysis of the deposited data

How the results depend on the processing

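Counts at the FDR were most sensitive to scaling and to single libraries. For all genes, 3908 passed as deposited, 1940 after quantile normalization and 2123 with libraries rescaled to the same median, and between 0 and 4667 with a library left out. Higher against lower calls were 659 and 3249 as deposited, 1039 and 901 after quantile normalization and 1177 and 946 rescaled to the same median. For members the count was 3 under both of these scalings and ranged from 0 to 13 with a library left out, and for the named members it was 3, 3 and 0 to 11. Ribosome biogenesis genes gave 1 after quantile normalization, 1 with the replicate block, 0 rescaled to the same median and 0 to 23 with a library left out. Elongation factors gave 2 when rescaled to the same protein-coding sum and 0 to 4 with a library left out. With the replicate block, 2913 genes passed, and 7 members, among them RpL5 (log2 fold change -1.34) but not RpL22, with 6 shared with the fit without it. The numbers do not pair the libraries, and this fit is not evidence on the members. The members' median was 0.69 rescaled to the same median and -0.37 to -0.09 with a library left out. The log2 ratio of the members' share was -0.31 over protein-coding FPKM, 0.017 over all genes and -0.12 in implied fragments. The median over the 14 pairs of the difference in log2 ratio was -1.16. It was -1.99 with a pseudocount of 0.1, -0.36 with 5 and between -1.55 and -0.80 with a library left out. The 14 pairs include the 3 members that resemble yeast assembly factors, which are paired by name only. RpS28b is in them as the partner of RpS28a and of RpS28-like.

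Rescaled to the same median, the log2 fold change turned positive for Polr1A (0.52), RpL10Ab (0.51), RpL15 (0.44), RpL21 (0.86), RpL24 (0.68), RpL24-like (0.32), RpL34a (0.64), RpL34b (0.78), RpL37-1 (0.52), RpL37A (0.17), RpL38 (0.13), RpL4 (0.23), RpL40 (0.34), RpL41 (0.83), RpL7 (0.76), RpLP0 (0.66), RpLP0-like (0.28), RpLP2 (0.79), RpS10b (0.33), RpS14a (0.59), RpS14b (0.58), RpS15Ab (0.77), RpS19a (0.77), RpS27A (0.74), RpS28b (0.83), RpS3A (0.64), RpS5a (0.81), Tctp (0.91), eEF1beta (0.90) and nclb (0.60). After quantile normalization it was 0.66 for Polr1A, -0.066 for RpL18, 0.0081 for RpL21, -0.15 for RpL39, 0.014 for RpLP0-like, -0.050 for RpS2 and 0.27 for nclb. Rescaled to the same protein-coding sum it was -0.087 for RpL18, -0.10 for RpL39, -0.090 for RpLP1, -0.12 for RpS15Aa and -0.073 for RpS2. With a library left out the range crossed 0 for Polr1A (-0.88 to 0.31), RpL18 (-0.13 to 0.20), RpL21 (-0.14 to 0.019), RpL34a (-0.65 to 0.090), RpL34b (-0.37 to 0.090), RpL39 (-0.055 to 0.10), RpL41 (-0.37 to 0.19), RpLP0-like (-1.34 to 0.15), RpLP1 (-0.037 to 0.10), RpS15Aa (-0.053 to 0.056), RpS19a (-0.40 to 0.089), RpS2 (-0.23 to 0.32), Tctp (-0.085 to 0.057) and nclb (-0.94 to 0.36). The cause of these changes was not tested. Rescaling to the protein-coding sum, the share over all genes and the share in implied fragments were chosen after seeing the data. A log2 change of 0.5 mostly went undetected in the simulation, whose adjustment was stricter than that of this fit. Among the 7 single or stronger copies below -0.5 here, all but RpL22 missed the FDR. The lowest copies rest on 0 or 1 fragments in some libraries.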
